A study of Mus musculus with 24 samples.

Results

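The genes described here encode the proton pump of the lysosome, the lysosome-associated membrane proteins (LAMPs) and the cathepsins, followed through cultures of primary osteoblasts (OBs) that do or do not carry a mutant collagen chain. They were chosen by symbol, with earlier results of these data known. Every gene named Atp6v or Atp6ap, Lamp1 to Lamp5, or Cts with a letter was taken, without pseudogene symbols. *Atp6v0d2* and *Ctsk*, which are marker genes of osteoclasts, were left out. Of 55335 counted genes, 46 met the rule. They were 13 symbols of the V1 sector of the pump, 8 of its V0 sector, 3 accessory subunits, 4 LAMP genes, 9 widely known cysteine cathepsins, 4 aspartic or serine cathepsins, 4 placental cathepsins and *Atp6v1fnb*.

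The OBs came from parietal bones of pups in the first week after birth and were grown under osteogenic differentiation with ascorbic acid 2-phosphate. WT pups were compared with Het pups carrying 1 copy of G610C, a glycine to cysteine substitution in the α2(I) chain of type I procollagen (gene *Col1a2*). Counts per gene do not separate the mutant allele from the normal one. PolyA RNA of both genotypes was collected on days 8, 14 and 21 of culture, in 4 replicates per genotype and day, 24 libraries in all. Cells of several pups of 1 genotype were pooled before seeding, and cells that make no collagen I were present too. The p-values thus measure the spread between cultures, which can be wells of 1 pool, and not between animals. The paper describes separate experiments on cells of different litters, which differed in plating density and in an early growth phase at low oxygen. The labels do not say which experiment a replicate belongs to, and the main tests treated all libraries as independent.

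Lysosomes digest proteins, lipids and sugars that reach them by endocytosis and autophagy, including misfolded procollagen. The vacuolar H+-ATPase (V-ATPase) acidifies them: its cytosolic V1 sector hydrolyses ATP, its membrane V0 sector moves protons, and accessory subunits help the complex to assemble. LAMPs line the membrane, and cathepsins are the proteases inside, made as proenzymes that mature at acid pH. The helix-loop-helix factors TFEB, TFE3 and MITF bind E-box sequences near many of these genes. In bone, OBs use these enzymes for their own turnover, while macrophages and osteoclasts hold large amounts of them.

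Libraries held 17140202 to 59734231 counts (median 48340136), and the replicates numbered 1 were the shallowest, at 25825762 or fewer against 28159342 or more. Replicate 1 was therefore treated as a candidate batch, and values within it and within replicates 2 to 4 stand beside the main ones. Summed, 8 osteoblast markers had a median level of 68.9 at day 8 and 271.7 at days 14 and 21, on the scale explained in the next paragraph. A set of 14 macrophage markers, among them *Lyz2*, *Csf1r*, *Adgre1* and *C1qa*, was present in every library. Their summed level in WT was 0.257 to 0.509 at day 8, 1.61 to 5.15 at day 14 and 6.89 to 7.97 at day 21. In Het it was 0.43014 to 1.14 at day 8, 3.58 to 8.23 at day 14 and 9.09 to 20.1 at day 21. The 5 chondrocyte markers, of which *Col2a1* had the highest level, summed to a median of 21.3 at day 8 and 4.67 later. The 7 neutrophil markers never summed above 0.000924 and the 6 T and NK cell markers never above 0.000257, with *S100a9* and *Gzma* at 0 counts in all 24 libraries. Because this was bulk RNASeq, fewer cells of a type and less RNA per cell cannot be told apart.

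Levels are given as the relative quantity (RQ), the count of a gene over the geometric mean count of *Sdha*, *Mrfap1*, *Actb* and *Actg1* in its library. To compare 1 gene with another, RQ was divided by the exon length in kb. On that scale *Ctsd*, the main aspartic protease of lysosomes, stood highest, with a mean of 1.31 RQ per kb over the 24 libraries. *Lamp1* followed at 0.459 RQ per kb, *Ctsb* at 0.362, *Ctsz* at 0.296, *Ctss* at 0.188 and *Ctsa* at 0.162. The most abundant pump genes were the accessory subunit *Atp6ap1* at 0.1398 RQ per kb, the V0 subunit *Atp6v0d1* at 0.1201 and the V1 subunit *Atp6v1g1* at 0.1184. *Atp6v1a*, which carries the catalytic site for ATP, had 0.0461 RQ per kb.

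Isoforms of 1 subunit differed widely in level. *Atp6v1g1* stood far above its isoform *Atp6v1g2* (0.00278 RQ per kb), *Atp6v1c1* (0.0156) above *Atp6v1c2* (0.000462), and *Atp6v0e* (0.0526) above *Atp6v0e2* (0.000713). Among the large a subunits, which direct the pump to particular membranes, *Atp6v0a2* and *Atp6v0a1* had 0.0241 and 0.0228 RQ per kb and the kidney isoform *Atp6v0a4* 0.000635. In all, 5 members had 0 counts in every library, the placental *Ctsj*, *Ctsm*, *Ctsq* and *Ctsr* and the V1 isoform *Atp6v1g3*. Another 8 (*Atp6v1b1*, *Atp6v1e2*, *Atp6v1fnb*, *Atp6ap1l*, *Lamp3*, *Lamp5*, *Ctse* and *Ctsg*) summed to 1 to 59 counts over the 24 libraries and did not pass the filter on low counts. The remaining 33 members passed it in every comparison and are the tested genes in what follows.

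**Figure D1:**
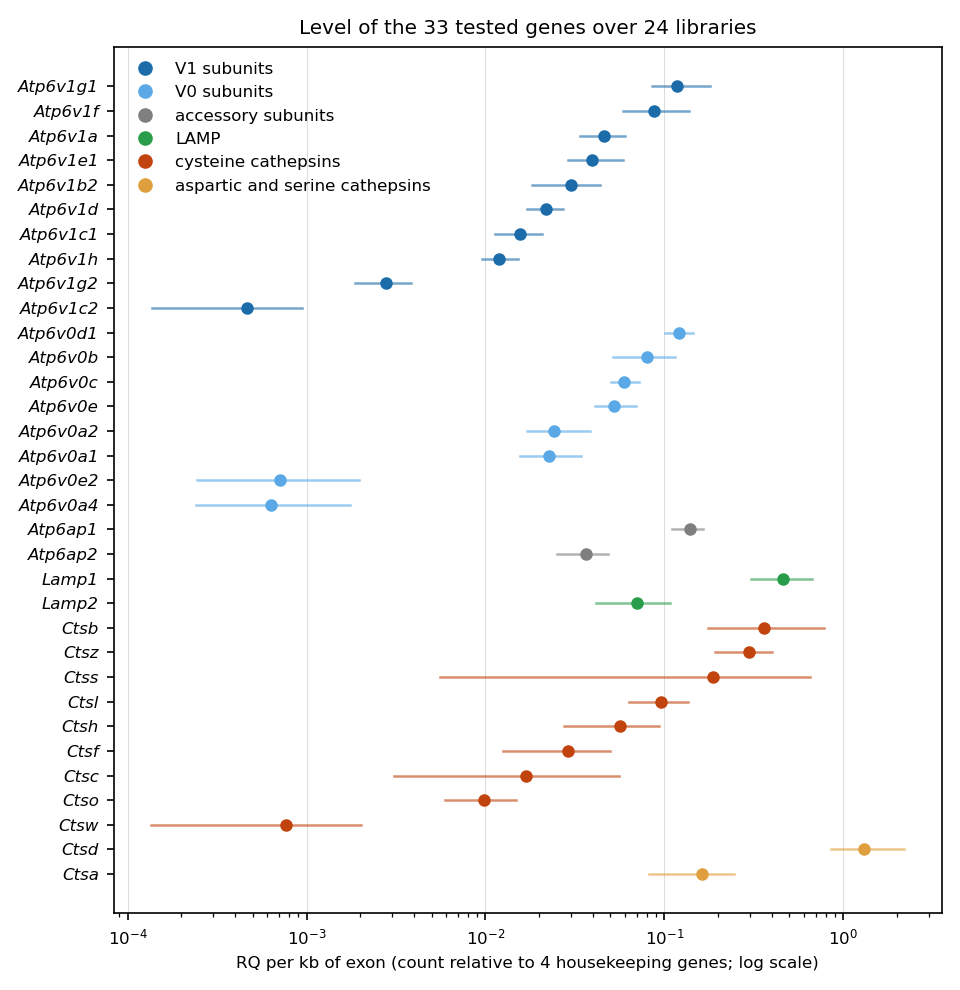
RQ per kb of exon (log axis) of the 33 tested members, grouped by role, with the mean of 24 libraries as a point and the lowest to highest library as a line. *Ctsd* had the highest mean (1.31), and the line of *Ctss* is long, with library values of 0.00759 to 0.888 RQ before division by length.

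The main change was with days in culture. From day 8, when the cells had just become confluent, to days 14 and 21, 29 of the 33 members rose, 1 fell and 3 were not called (edgeR quasi-likelihood test, adjusted p under 0.05, 24 libraries, genotypes weighted equally). Among all 20434 genes tested, 40.9% rose and 17.4% fell. The median log2 fold change was 0.50 over the members and 0.16 over all genes. All 9 cysteine cathepsins rose, as did *Ctsa* and *Ctsd*, both tested LAMPs, both accessory subunits, 8 of 10 V1 subunits and 6 of 8 V0 subunits. In 11 members the day 8 libraries did not overlap the later ones. The share of all genes without overlap was not counted, here or in later comparisons, so a lack of overlap is not read as particular to these genes. The summed level of the cysteine cathepsins, with a median of 2.33 at day 8 and 4.91 later, moved further than that of the V1 subunits, at 0.893 and 1.27.

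*Ctss*, a protease that cuts the invariant chain in antigen-presenting cells, rose most. Its RQ was 0.00759 to 0.0493 at day 8 (median 0.0184) and 0.0676 to 0.888 at days 14 and 21 (median 0.361), without overlap. The log2 fold change was 3.93 ± 0.30 (SE, adjusted p = 3.13e-10 by edgeR). *Ctsc*, a dipeptidyl peptidase that activates serine proteases of immune cells, went from 0.018 to 0.0426 (median 0.0228) to between 0.0401 and 0.324 (median 0.128), with overlap between the highest day 8 library and the lowest later one. Its log2 fold change was 2.22 ± 0.18 (adjusted p = 9.75e-10 by edgeR). Both genes moved in the same direction as the macrophage markers, of which 14 of 14 rose in this comparison, with a median log2 fold change of 3.83. The part of these cells in the result was not tested.

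*Ctsf* and *Ctsa* also separated the stages fully. The cysteine protease *Ctsf* had an RQ of 0.0634 to 0.0865 at day 8 (median 0.0701) and of 0.133 to 0.251 later (median 0.182), a log2 fold change of 1.32 ± 0.08 (adjusted p = 2.01e-11 by edgeR). *Ctsa*, a carboxypeptidase that also shields neuraminidase and β-galactosidase in a complex, had 0.387 to 0.479 at day 8 (median 0.4101) and 0.791 to 1.16 later (median 0.9499). Its log2 fold change was 1.16 ± 0.05 (adjusted p = 5.55e-14 by edgeR), and 10.5% and 6.9% of its exon bases overlap *Pltp* and *Neurl2* on the other strand. The ratio of mean RQ between the stages was 2.54 in WT and 2.503 in Het for *Ctsf*, and 2.302 and 2.202 for *Ctsa*.

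Among the remaining proteases, *Ctsb*, an endoprotease that also trims dipeptides, had an RQ of 1.06 to 1.35 at day 8 (median 1.25) and of 1.39 to 4.72 later (median 2.65), with no overlap (log2 fold change 1.08 ± 0.09). *Ctsh*, an aminopeptidase, rose from a median of 0.160 to 0.2903 (0.89 ± 0.10, no overlap). *Ctsz*, a carboxypeptidase, rose by 0.68 ± 0.05, without overlap, and the endoprotease *Ctsl* by 0.67 ± 0.07. *Ctsd*, the most abundant member, rose less, from an RQ of 2.02 to 2.97 (median 2.44) to one of 2.43 to 5.16 (median 3.38), a log2 fold change of 0.50 ± 0.07 (adjusted p = 2.05e-06 by edgeR). *Ctsd* shares 34.4% of its exon bases with the same-strand gene *Gm49369*, *Ctsl* 26.8% with *Gm47123* and *Ctsb* 12.8% with *Fdft1*, and the rule for such reads is not given in the sources used here. Although *Ctsw* had only 7 to 86 counts in a library, it also rose (1.70 ± 0.27, chosen for naming after its values were seen).

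The membrane proteins rose to a lesser extent. *Lamp1*, the most abundant LAMP, had an RQ of 0.82 to 1.17 at day 8 (median 0.883) and 1.14 to 1.78 later (median 1.39), and the groups overlapped by 1 day 8 library. Its log2 fold change was 0.55 ± 0.07 (adjusted p = 4.83e-07 by edgeR). *Lamp2*, whose A isoform is the receptor of chaperone-mediated autophagy, rose by 0.40 ± 0.10 (adjusted p = 0.00218 by edgeR), from a median of 0.5495 to one of 0.725.

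Within the pump, the largest log2 fold change was 1.17, in a V0 subunit. Among the V1 subunits, *Atp6v1b2*, which pairs with the catalytic subunit, rose most. Its RQ was 0.0971 to 0.115 at day 8 and 0.136 to 0.232 later, a log2 fold change of 0.80 ± 0.06 (adjusted p = 1.43e-10 by edgeR). The catalytic *Atp6v1a* rose by 0.29 ± 0.06 and *Atp6v0d1*, which links the sectors, by 0.29 ± 0.04 without overlap, but with the total count as scale both stood near 0 (-0.0116 and -0.0108). *Atp6ap2*, also known as the prorenin receptor, rose by 0.48 ± 0.08. *Atp6v0a2* was the 1 member that fell, by 0.40 ± 0.10 on the log2 scale (adjusted p = 0.00123 by edgeR). Its RQ was 0.144 to 0.259 at day 8 (median 0.184) and 0.114 to 0.195 later (median 0.144), with the highest values in replicate 1 at day 8 (0.257 in WT and 0.259 in Het). The 3 members not called were *Atp6v1h*, *Atp6v1c2* and *Atp6v0a4*.

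The size of the rise depended on the scale. Set by the housekeeping genes, the median over all genes was 0.16, against 0.013 with TMM and -0.14 with the total count, while the members' median was 0.50, 0.36 and 0.1987. On the TMM scale 26 members rose and 1 fell, beside 30.1% and 29.9% of all genes. On the total count 20 rose and 4 fell, beside 21.4% and 43.4%, with *Atp6v1h*, *Atp6v1c2* and *Atp6v0c* joining *Atp6v0a2*. There *Ctso* was the 1 cysteine cathepsin no longer called higher. Of all called genes, 70.1% were higher on the housekeeping scale, 50.2% with TMM and 33% with the total count. In both replicate 1 and replicates 2 to 4, 31 of the 33 members were higher at the later days, with median ratios of later to day 8 RQ of 1.37 and 1.47. Taken by genotype, 28 members rose and 2 fell in WT, where 37.6% of all genes rose and 16.8% fell. In Het 26 members rose and 0 fell, beside 30.3% and 9.95% of all genes. *Ctss* had a ratio of mean RQ of 20.5 in WT and 13.6 in Het, with lower day 8 levels in WT, and the difference between genotypes is tested further on.

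**Figure D2:**
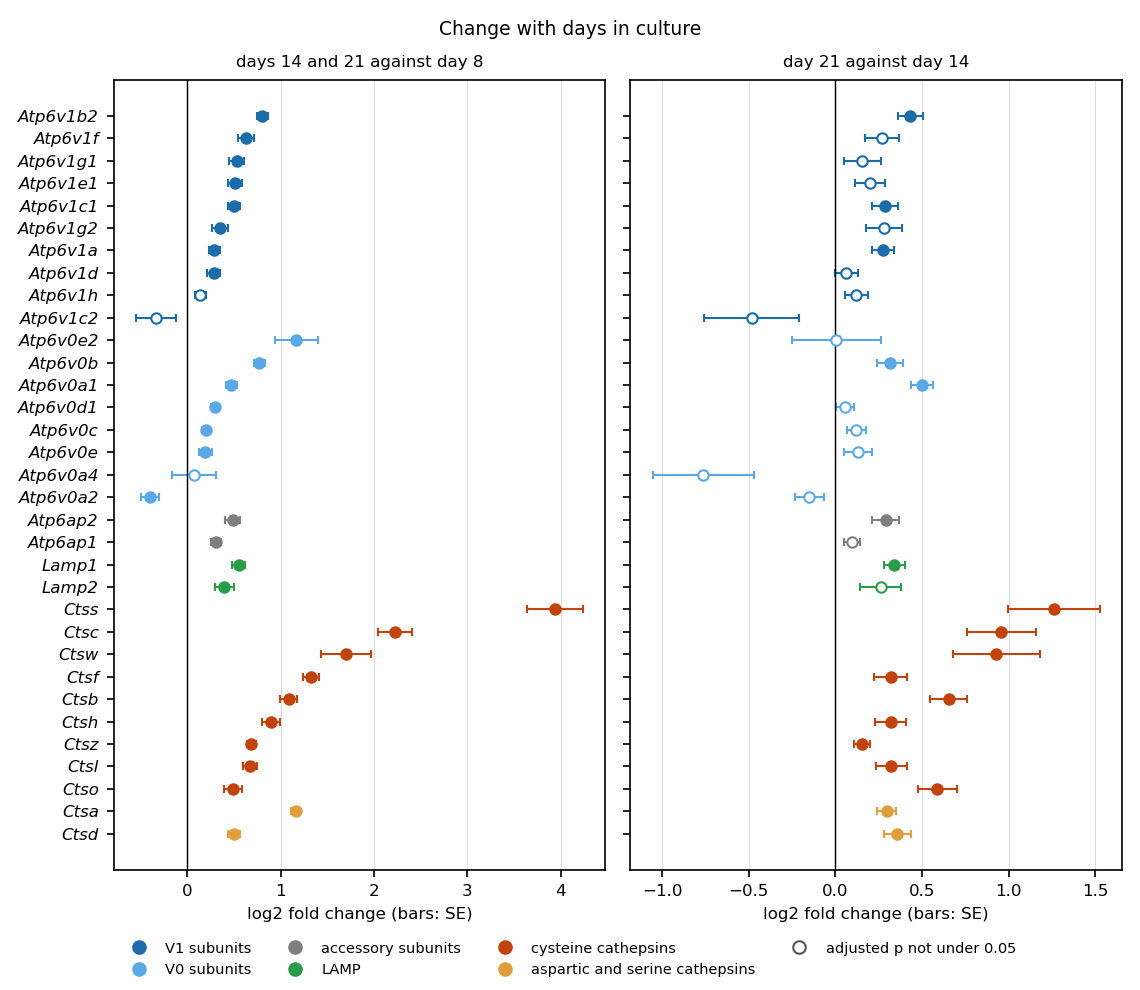
Log2 fold change with its SE for the 33 tested members, from day 8 to days 14 and 21 (left, 24 libraries) and from day 14 to day 21 (right, 16 libraries), ordered by role, with open points where the adjusted p was not under 0.05. On the left 29 points are filled above 0 and *Atp6v0a2* below it, and on the right 18 are filled, all above 0, with *Ctss* and *Ctsc* farthest to the right in both.

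The rise went on between days 14 and 21. With genotype as a covariate, 18 of 33 members were higher at day 21 than at day 14 and 0 were lower, whereas 13.3% of all 19839 genes tested were higher and 5.94% lower (edgeR, 16 libraries). With TMM, 17 members were higher and 1 (*Atp6v0a4*) lower, beside 11.8% and 10.1% of all genes. The share of called genes that were higher was 69.2% on the housekeeping scale and 53.8% with TMM. All 18 had also risen from day 8. They were the 9 cysteine cathepsins, *Ctsa*, *Ctsd*, *Lamp1*, *Atp6ap2*, *Atp6v1a*, *Atp6v1b2*, *Atp6v1c1*, *Atp6v0a1* and *Atp6v0b*. The median log2 change was 0.28 over the members and 0.058 over all genes. The direction was the same in replicate 1 and in replicates 2 to 4 for 32 of the 33 members.

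*Ctss* rose again, from an RQ of 0.0676 to 0.414 at day 14 (median 0.183) to 0.316 to 0.888 at day 21 (median 0.451), a log2 fold change of 1.26 ± 0.26 (adjusted p = 0.00337 by edgeR). *Ctsc* rose by 0.96 ± 0.20 and *Ctsb* by 0.65 ± 0.11, and each of these 3 genes was higher at day 21 in 8 of 8 pairs of the same genotype and replicate number. The macrophage markers were higher in 14 of 14, with a median of 1.12, and their part in the result was not tested.

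*Ctso* had an RQ of 0.0305 to 0.0588 at day 14 (median 0.0456) and 0.0622 to 0.0757 at day 21 (median 0.0657), without overlap (0.59 ± 0.11). The pump subunit *Atp6v0a1*, at 0.126 to 0.161 at day 14 (median 0.132) and 0.178 to 0.225 at day 21 (median 0.188), was also without overlap, with a log2 fold change of 0.50 ± 0.06 (adjusted p = 0.000117 by edgeR). The other two members without overlap were *Lamp1* (0.34 ± 0.06) and *Atp6v1a* (0.28 ± 0.06). *Atp6v1b2* rose by 0.43 ± 0.07, *Ctsd* by 0.36 ± 0.08, *Ctsl* by 0.32 ± 0.09, *Atp6ap2* by 0.29 ± 0.08 and *Ctsz* by 0.15 ± 0.05. *Lamp2* (0.26 ± 0.12, adjusted p = 0.136 by edgeR) and *Atp6v0d1* (0.06 ± 0.05, adjusted p = 0.532 by edgeR) were not called.

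This count varied with the libraries used. Leaving out replicates 1, 2, 3 and 4 in turn, 22, 15, 10 and 9 members were called, with 28.9%, 11.6%, 8.52% and 8.58% of all genes. In WT alone it was 14, with 9.17% of all genes higher, and in Het alone 0 by edgeR (14 at an unadjusted p under 0.05), with 0.309% of all genes higher. In the test of the difference itself, added after the data were seen, 0 of 33 members changed differently between days 14 and 21 in Het and WT by edgeR, with 0 at an unadjusted p under 0.05 and 0 by DESeq2, and 0% of all genes were called.

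The sequences before the start sites were examined because so many members rose together. RefSeq promoters of GRCm38.p6 matched 36 of the 46 members, and 9 of the 36 held CACGTG, the palindromic E-box, which reads the same on both strands. Counted in the same way, 8.093% of all 27025 genes with a promoter in the table held it, and 7.15% of all 32851 promoters of this length. The longer TCACGTGA, which contains it, was in 5 members and 1.125% of all genes (0.9741% of promoters), and GTCACGTGAC, which contains both, was in 0 members and 0.37% of all genes (0.3257% of promoters). The windows shown are those with more than 1 E-box, the nearer of the separate matches of *Ctsd*, and, for the pump, those of *Atp6v1a* and *Atp6v0d1*, which carry the catalytic site and the link between sectors, read on the strand of the gene with CACGTG in capitals.
Lamp1: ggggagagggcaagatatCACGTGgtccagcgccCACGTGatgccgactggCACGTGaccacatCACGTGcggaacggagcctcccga
Ctsa: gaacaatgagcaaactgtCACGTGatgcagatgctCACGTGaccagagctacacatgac
Atp6v0b: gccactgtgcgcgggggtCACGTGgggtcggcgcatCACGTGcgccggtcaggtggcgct
Ctsd: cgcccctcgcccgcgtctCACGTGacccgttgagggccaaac
Atp6v1a: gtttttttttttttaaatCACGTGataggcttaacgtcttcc
Atp6v0d1: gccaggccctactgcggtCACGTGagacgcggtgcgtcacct

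The *Lamp1* window is chr8:13159082-13159169 on the plus strand and holds 4 E-boxes within 88 bases around the start site. The *Ctsa* window is chr2:164833743-164833801 on the plus strand, and that of *Atp6v0b* is chr4:117887324-117887383 on the minus strand, each with 2. The *Ctsd* window is chr7:142387902-142387943, that of *Atp6v1a* chr16:44139367-44139408 and that of *Atp6v0d1* chr8:105566044-105566085, all on the minus strand. Besides these 6 genes, *Atp6v0e*, *Ctsl* and *Ctsf* held 1 match each, and *Ctsd* held another match farther from its start. All 9 members with the motif were higher at days 14 and 21 than at day 8, with a median log2 fold change of 0.55, and 14 of 16 tested members with a promoter but no match were too, with a median of 0.48. *Ctss* and *Ctsc*, which rose most, were among those without a match. These are matches of letters in a short window and not observed binding.

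The comparison of Het with WT asked whether the mutant collagen chain alters these genes in mature cultures. At days 14 and 21 together, with day as a covariate, 5 of the 33 members were higher in Het, 2 were lower and 26 were not called (edgeR, 16 libraries). Among all 19839 genes 7.26% were higher and 8.88% lower. All 7 were cathepsins: *Ctss*, *Ctsc*, *Ctsb*, *Ctsd* and *Ctsz* were higher, and *Ctsh* and *Ctsw* lower. Of the 20 tested pump and accessory subunits and the 2 LAMPs, 0 were called by edgeR on the housekeeping scale. At an unadjusted p under 0.05 there were 1 V1 and 3 V0 subunits, and DESeq2 called *Atp6v0e2* higher and *Atp6v0a4* lower. On other scales some pump genes were called higher, as given below. With the replicate number as a block, *Atp6v0e2* was called higher and *Atp6v0a2* and *Atp6v0a4* lower. *Atp6v0a4*, named after its values were seen, was lower in Het in 8 of 8 pairs. In the block without replicate 2, 3 or 4, *Atp6v0a4* and *Ctsw* were the 2 members called, both lower. Beside them 4.76%, 3.99% and 1.48% of all genes were lower. The groups overlapped in all 33 members, and the median log2 fold change was 0.04 over the members and -0.048 over all genes. In GENCODE M21 (GRCm38), *Ctss* lies at chr3:95526786-95556403, *Ctsc* at chr7:88278085-88310888, *Ctsb* at chr14:63122462-63145923, *Ctsd* at chr7:142375911-142388038, *Ctsz* at chr2:174427493-174439039, *Ctsh* at chr9:90054152-90076089 and *Ctsw* at chr19:5465043-5468507, and reads were counted over their exons.

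*Ctss* spanned 0.0676 to 0.464 RQ in WT, with a median of 0.275, and 0.132 to 0.888 RQ in Het, with a median of 0.426, a log2 fold change of 1.08 ± 0.26 (adjusted p = 0.0133 by edgeR). Its 4 Het libraries at day 14 had 0.132, 0.364, 0.414 and 0.395 in the order of their numbers, and the WT libraries 0.235, 0.0923, 0.0676 and 0.123. Replicate 1 thus had the lowest Het value and the highest WT value of that day. *Ctsc* spanned 0.0401 to 0.138 RQ in WT, with a median of 0.109, and 0.0729 to 0.324 RQ in Het, with a median of 0.148, a log2 fold change of 0.88 ± 0.20 (adjusted p = 0.00898 by edgeR).

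*Ctsb* lay between 1.39 and 3.07 RQ in WT, where the median was 2.49, and between 2.03 and 4.72 RQ in Het, where it was 2.95, a log2 fold change of 0.46 ± 0.11 (adjusted p = 0.00987 by edgeR). *Ctsd* lay between 2.43 and 3.67 RQ in WT, where the median was 3.31, and between 2.99 and 5.16 RQ in Het, where it was 3.72, 0.27 ± 0.08 higher on the log2 scale (adjusted p = 0.0306 by edgeR). *Ctsz* had 0.419 to 0.517 in WT and 0.464 to 0.575 in Het, 0.16 ± 0.05 higher (adjusted p = 0.0315 by edgeR). Each of these 5 genes was higher in Het in 7 of 8 pairs of the same day and replicate number, and the exception was always replicate 1 at day 14. The summed macrophage markers had the same exception, with 5.15 in WT and 3.58 in Het. Of the 14 macrophage markers 13 were called higher in Het, all but *Mrc1*, with a median log2 fold change of 1.04, and 5 of the 8 osteoblast markers were called lower. The summed chondrocyte markers, of which 0 of 5 were called by edgeR, had a Het to WT ratio of 1.03 in replicate 1 and 0.243 in replicates 2 to 4, where they were 1.13 to 2.54 in Het and 3.49 to 13.2 in WT. The part of these cells in the result was not tested.

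Lower in Het were *Ctsh* and *Ctsw*, 2 of 33 members beside 8.88% of all genes, so their count was not above the share of all genes. *Ctsh* spanned 0.286 to 0.409 RQ in WT, with a median of 0.329, and 0.233 to 0.423 RQ in Het, with a median of 0.249, and it was lower in Het in 7 of 8 pairs, with replicate 1 at day 21 as the exception. It was lower by 0.31 ± 0.09 on the log2 scale (adjusted p = 0.0274 by edgeR). *Ctsw*, known from natural killer and cytotoxic T cells, was named after its values were seen and had the smallest adjusted p of the members. Its counts were low, 18 to 86 in a WT library and 8 to 33 in a Het library, and its RQ lay between 0.00164 and 0.00378 in WT, where the median was 0.0025, and between 0.00045 and 0.00327 in Het, where it was 0.00101. It was lower in Het in 8 of 8 pairs, with a log2 fold change of -1.35 ± 0.25 (adjusted p = 0.00381 by edgeR), and the T and NK cell markers stood near 0 in both genotypes.

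**Figure D3:**
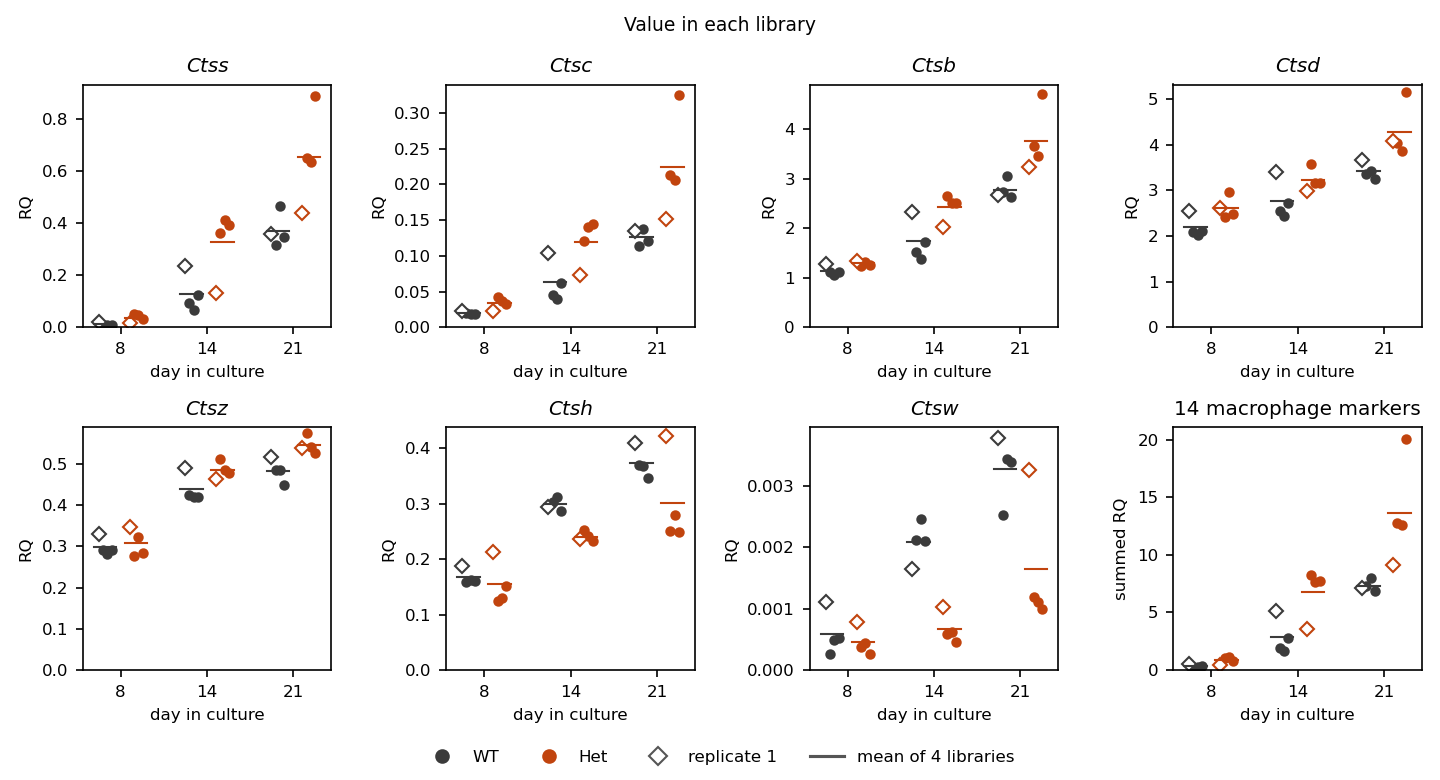
RQ of the 7 cathepsins called between Het and WT, and the summed RQ of 14 macrophage markers, in each of the 24 libraries by day, with WT in dark grey, Het in orange, replicate 1 as open diamonds and the mean of 4 libraries as a line. At day 14 replicate 1 of WT lies above replicate 1 of Het for *Ctss*, *Ctsc*, *Ctsb*, *Ctsd*, *Ctsz* and the macrophage sum, while replicates 2 to 4 lie the other way round.

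The remaining named members showed small differences. *Lamp1* had a log2 difference of -0.03 ± 0.06 and *Lamp2* one of -0.22 ± 0.12 (adjusted p = 0.206 by edgeR). *Lamp2* lay between 0.705 and 1.03 RQ in WT, where the median was 0.752, and between 0.399 and 0.883 RQ in Het, where it was 0.698. *Atp6v1a* (-0.04 ± 0.06), *Atp6v0d1* (-0.06 ± 0.05), *Atp6ap2* (0.03 ± 0.08) and *Ctsl* (0.20 ± 0.09, adjusted p = 0.136 by edgeR) were not called either. A p that misses the threshold does not show that the genotypes had equal levels. The summed V1 subunits had a median RQ of 1.258 in WT and 1.283 in Het, and the V0 subunits 1.162 and 1.121.

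For the 7 called genes, the genotype differences were larger in replicates 2 to 4 than in replicate 1. Within replicate 1 the ratios of mean RQ of Het to WT were 0.962 for *Ctss*, 0.9396 for *Ctsc*, 1.05 for *Ctsb*, 1.0002 for *Ctsd* and 0.994 for *Ctsz*, and within replicates 2 to 4 they were 2.37, 2.21, 1.49, 1.29 and 1.16. For *Ctsh* the ratios were 0.936 and 0.759, and for *Ctsw* 0.7900 and 0.309956. In replicate 1, 7 of the 33 members were higher in Het, and in replicates 2 to 4, 21 were; 15 had the same direction in both. The macrophage sum had a ratio of 1.03 in replicate 1 and 2.43 in replicates 2 to 4.

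**Figure D4:**
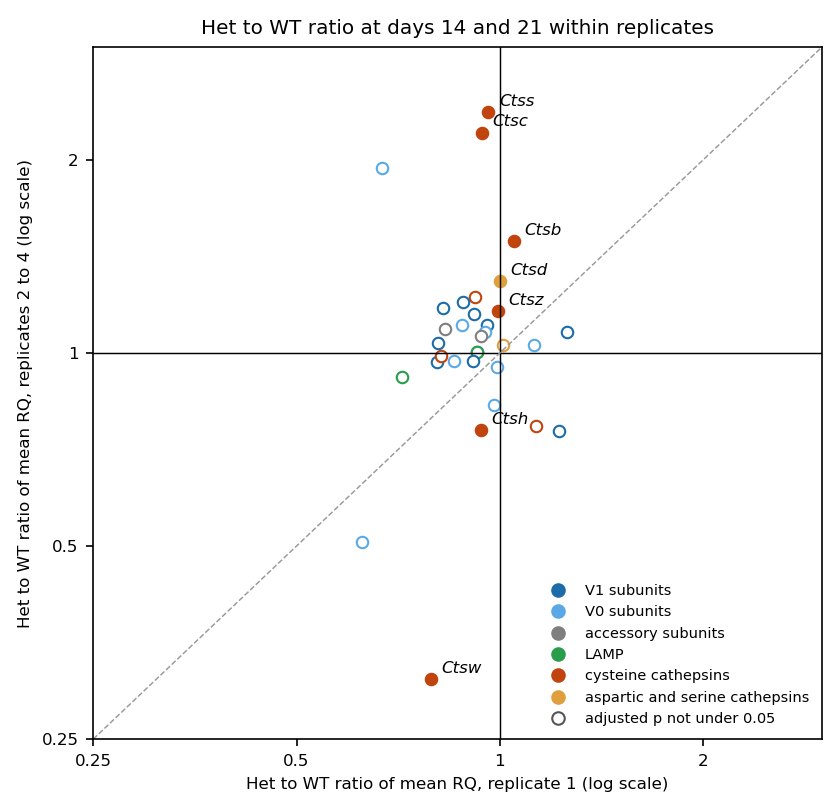
Het to WT ratio of mean RQ at days 14 and 21 within replicate 1 (horizontal, log axis) and within replicates 2 to 4 (vertical, log axis) for the 33 tested members, with filled points for the 7 genes called over all replicates and a dashed line where both ratios are equal. The 5 genes called higher lie between 0.9396 and 1.05 on the horizontal axis and between 1.16 and 2.37 on the vertical one.

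The count of called members changed with the libraries and the scale. Without replicate 1 it was 11 higher and 5 lower, with pump subunits such as *Atp6v1b2* and *Atp6v1c1* among the higher ones, while 17.2% of all genes were higher and 22.2% lower. Without replicate 2, 3 or 4 it was 0 by edgeR, with 7, 9 and 7 members at an unadjusted p under 0.05, and 1.63%, 1.29% and 0.702% of all genes were called. With the replicate number as a block, 6 members were higher and 5 lower, adding *Atp6v0e2* above and *Ctsf*, *Atp6v0a2* and *Atp6v0a4* below, and 9.34% of all genes were higher and 14.2% lower. Without a filter on low counts, *Ctsd* and *Ctsz* were no longer called (adjusted p = 0.0923 and 0.0898 by edgeR). On the total count 12 members were higher and 2 lower, beside 16.6% and 5.08% of all genes. The pump genes *Atp6v0e2*, *Atp6v1b2*, *Atp6v1c1*, *Atp6v0c* and *Atp6ap1* were among the higher ones there. With TMM 6 members were higher, *Atp6v1c1* among them, and 2 lower, beside 12.9% and 7.27%. On both scales, on the housekeeping scale and with the block, the lower ones stood near the share of all genes. Of all called genes 45.0% were higher in Het on the housekeeping scale, 64.0% with TMM and 76.5% with the total count.

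**Figure D5:**
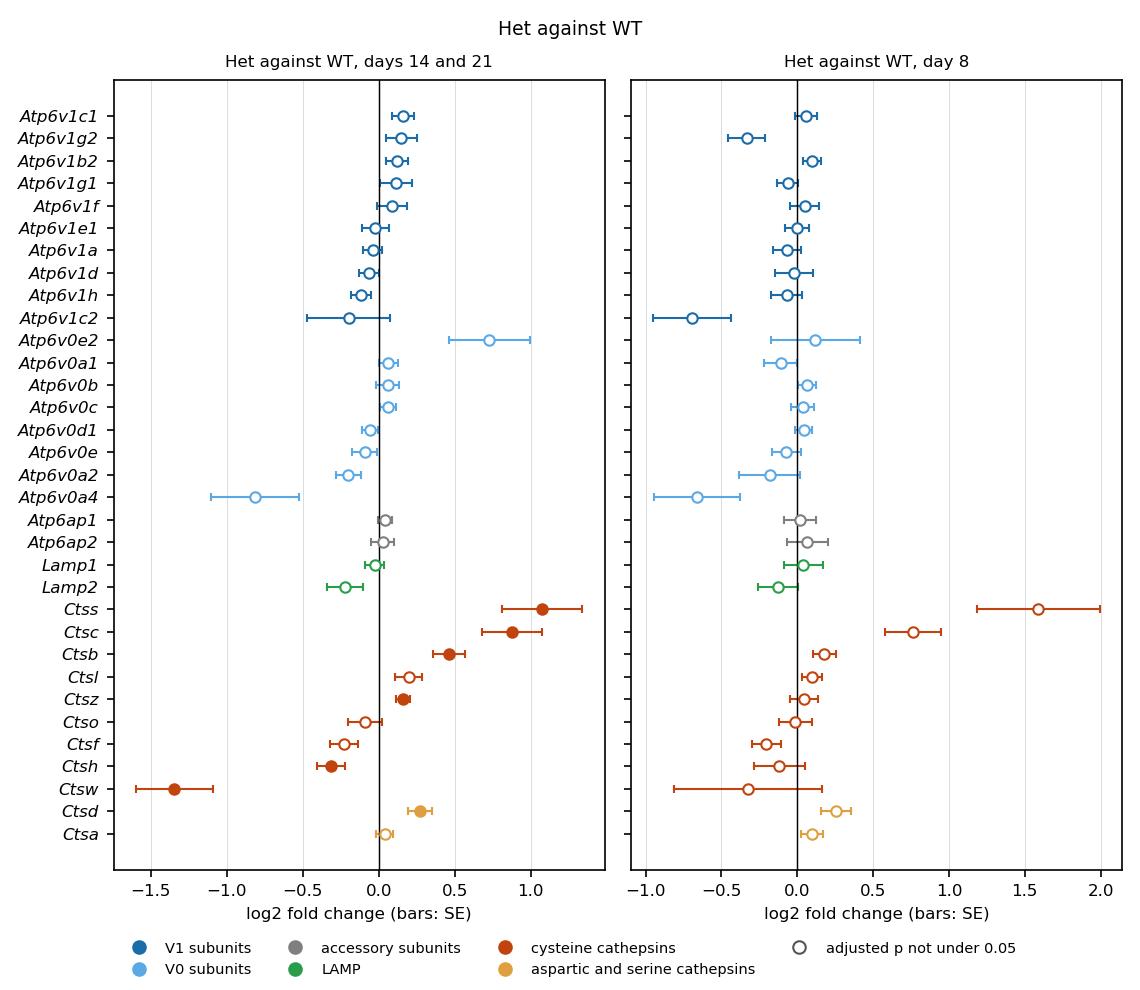
Log2 fold change of Het against WT with its SE for the 33 tested members at days 14 and 21 (left, 16 libraries) and at day 8 (right, 8 libraries), ordered by role, with open points where the adjusted p was not under 0.05. The 7 filled points on the left are all cathepsins, and on the right no point is filled.

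At day 8, 0 of the 33 members differed between Het and WT by edgeR, and 0% of all 18222 genes did. At an unadjusted p under 0.05 there were 7 members and 1817 genes, and DESeq2 called *Ctss* and *Ctsc*, with 2.37% of all genes. *Ctss* had an RQ of 0.021, 0.00994, 0.00759 and 0.0104 in WT and of 0.0158, 0.0493, 0.0455 and 0.0337 in Het, in the order of the replicate numbers, a log2 fold change of 1.59 ± 0.40 (adjusted p = 0.217 by edgeR). Replicate 1 had the highest WT value and the lowest Het value, as at day 14. The Het to WT ratio of the macrophage sum was 0.846 in replicate 1 and 3.54 in replicates 2 to 4, and its part in the result was not tested. *Ctsc* (0.76 ± 0.18, adjusted p = 0.208 by edgeR), *Ctsd* (0.26 ± 0.10, adjusted p = 0.43 by edgeR) and *Ctsb* (0.18 ± 0.08, adjusted p = 0.488 by edgeR) were higher in Het in 3, 4 and 4 of 4 pairs. Without replicate 1, when 4.55% of all genes were higher and 14.2% lower, 9 members were called, *Ctss*, *Ctsc*, *Ctsd* and *Ctsb* higher and *Atp6v0a2*, *Atp6v0a4*, *Atp6v1c2*, *Ctsh* and *Ctsf* lower, so the lower ones stood near the share of all genes. *Lamp1* (0.04 ± 0.13), *Lamp2* (-0.13 ± 0.13), *Ctsl* (0.10 ± 0.06), *Ctsz* (0.05 ± 0.09), *Atp6v1a* (-0.07 ± 0.09), *Atp6v0d1* (0.04 ± 0.06) and *Atp6ap2* (0.06 ± 0.13) were not called.

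The Het against WT effect was then compared between the stages. In this test 0 of 33 members differed by edgeR, against 0.171% of all 20434 genes, with 1 member (*Atp6v1g2*) at an unadjusted p under 0.05 and 0 called by DESeq2. The difference for *Ctss* was -0.53 ± 0.50, for *Ctsb* 0.28 ± 0.16 and for *Ctsw* -1.03 ± 0.52 on the log2 scale. Without replicate 1, *Ctsw* was called lower, beside 0.794% of all genes.

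Other genes of the same organelle were examined through fixed lists. Of 48 further lysosomal genes (hydrolases, transporters and membrane proteins), all tested, 41 were higher and 1 lower at days 14 and 21 than at day 8. The shares of all genes were 40.9% and 17.4%, and the median of the list was 0.47. Among the higher ones were the asparaginyl protease *Lgmn* (1.4957 ± 0.10), *Hexa* (1.28 ± 0.06), which encodes a lysosomal glycosidase chain, and *Hgsnat* (1.25 ± 0.10). Between days 14 and 21, 30 of the 48 were higher, beside 13.3% of all genes, among them the acid lipase *Lipa* (0.81 ± 0.13) and *Cln3* (0.62 ± 0.10). Between Het and WT at days 14 and 21, 10 of the 48 were higher and 2 lower, beside 7.26% and 8.88% of all genes, and the Het to WT ratio of their summed level was 0.986 in replicate 1 and 1.06 in replicates 2 to 4. Among the called genes were *Lipa* (0.54 ± 0.13), *Hgsnat* (0.42 ± 0.12) and the mannosidase *Man2b1* (0.32 ± 0.07) above and the sorting receptor *Sort1* below (-0.69 ± 0.19).

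Of 12 other V-ATPase genes, 11 were tested. From day 8 to the later days, when 40.9% of all genes rose, 7 of these 11 rose and 1 fell, including *Tcirg1*, the a3 subunit known from osteoclasts (0.51 ± 0.09), and *Ccdc115*, an assembly factor (0.65 ± 0.05). Between days 14 and 21, 4 of the 11 rose, led by *Dmxl2* (0.47 ± 0.08), beside 13.3% of all genes. *Ctsk*, the collagen-degrading cathepsin of osteoclasts that the choice by symbol left out, rose by 1.08 ± 0.10 from day 8, and *Atp6v0d2* by 4.13 ± 0.30. Of 9 tested osteoclast markers 5 were higher at the later days, a share not far from that of all genes, while *Acp5* (0.12, adjusted p = 0.318 by edgeR) and *Nfatc1* (0.06, adjusted p = 0.598 by edgeR) were not called.

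Endogenous inhibitors of cysteine cathepsins include the cystatins and proteins that resemble a cathepsin propeptide. Of 6 listed, 4 were higher and 1 lower at the later days, beside 40.9% and 17.4% of all genes. The propeptide-like *Ctla2a* (3.55 ± 0.43) and *Ctla2b* (3.03 ± 0.31) and the secreted *Cst3* (1.40 ± 0.09) were among the higher ones, and *Cst6* was lower (-1.19 ± 0.31). Between Het and WT at days 14 and 21, *Ctla2a* (1.77 ± 0.37, mean count 54.1) and *Ctla2b* (1.19 ± 0.30, mean count 433) were higher of 4 tested, beside 7.26% of all genes. The summed level of the list, in which *Cst3* had the highest RQ, had a Het to WT ratio of 0.868. In the TFEB family, *Tfec*, a member restricted mainly to macrophages and osteoclasts, rose by 3.55 ± 0.27 from day 8, *Mitf* by 1.03 ± 0.12 and *Tfeb* by 0.43 ± 0.06, and *Tfe3* was not called. At days 14 and 21, 3 of these 4 genes were higher in Het than in WT, beside 7.26% of all genes. They were *Tfec* (0.73 ± 0.24, adjusted p = 0.045 by edgeR), *Mitf* (0.38 ± 0.12, adjusted p = 0.0469 by edgeR) and *Tfe3* (0.24 ± 0.06, adjusted p = 0.0127 by edgeR). *Tfeb* was not called. The summed level of the family had a Het to WT ratio of 1.07 in replicate 1 and 1.25 in replicates 2 to 4. The further lists were tested in the main fits only. All these genes were counted in the same libraries in which 13 of 14 macrophage markers were higher in Het, whose part in these differences was not tested.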

How the data were processed

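PolyA RNA of 24 OB cultures had been sequenced from TruSeq libraries without molecular identifiers. Per gene, the authors deposited raw read counts. The submitters' processing notes name cutadapt 2.5, STAR 2.73a, Subread, featureCounts 1.6.4 and mm10. How strand and multiply matching reads were treated is not given in the sources used here. Groups came from the sample titles, with 4 libraries each (17140202 to 59734231 counts).

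RQ was computed from the counts with the housekeeping genes that the study used. edgeR 4.0.16 (R 4.3.3, glmQLFit and glmQLFTest, filterByExpr, housekeeping geometric mean as library scale, Benjamini-Hochberg over all tested genes, threshold 0.05) gave 6 comparisons, and the SE was the log2 fold change over the square root of F. DESeq2 1.42.0, other scales, no filter, a replicate block, single days or genotypes and each replicate left out were alternatives. The fits were also run on simulated counts drawn without any difference between replicate numbers. Those runs cannot show how the tests behave with a replicate 1 that stands apart, and their outcome is not given here. The members and the gene lists were chosen with earlier results of these data known. Named genes were 10 members fixed for every comparison, plus up to 6 called members with the largest rise and 6 with the largest fall and a mean of at least 50 counts, and up to 4 called genes per further list. A further gene that this rule names is not reported here. Coordinates and overlaps came from GENCODE M21 (GRCm38), where 54587 of 55335 identifiers had the same version. Promoters were 250 bases before to 50 after the RefSeq start. Smallest chi-square per degree of freedom of the 36 replicate pairs within groups was 5.14, so no library was a copy of another of its group. Libraries of different groups were not compared in this way.

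The replicate numbers, which come from the titles, paired the libraries: deviations from the group means of same-numbered WT and Het libraries of a day correlated at 0.2455 to 0.7506 in all 12 pairs (median 0.4089), against a median of -0.094 in 36 pairs of other numbers. The 18 of these with a replicate 1 lay at -0.6322 to -0.2312 and the 18 among replicates 2 to 4 at 0.04314 to 0.491 (same numbers there, 0.2455 to 0.5166), so most of the contrast was between replicate 1 and the rest.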

Additional observations from a re-analysis of the deposited data

Results flagged for a closer look

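In each group of 4 libraries, the highest or lowest library was compared with the nearest of the others for 18 named members. Of 108 such groups, 13 held a library that stood apart by Dixon's 95% limit, which chance alone passes in about 1 in 20 groups. In 11 of the 13 it was replicate 1.

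*Lamp1* stood apart in 3 groups, each time in replicate 1: its RQ was 1.386 in WT at day 14 (the others had 1.169 to 1.199), 1.763 in WT at day 21 (1.448 to 1.495) and 1.168 in Het at day 8 (0.8522 to 0.8984). *Lamp2* was 0.8828 in replicate 1 of Het at day 21, above 0.6894 to 0.7144. At day 8 in WT, replicate 1 was also highest for *Ctsh* (0.1884 against 0.1595 to 0.162), *Ctso* (0.04562 against 0.03648 to 0.03793) and *Atp6ap2* (0.08978 against 0.0663 to 0.06988). At day 14 it was highest in WT for *Ctsz* (0.4913 against 0.419 to 0.4239) and *Atp6v1b2* (0.1717 against 0.1433 to 0.1468), and in Het for *Atp6v0a1* (0.1606 against 0.1257 to 0.1308). At day 21 *Atp6v0a2* was 0.1554 in replicate 1 of Het, against 0.1255 to 0.1258.

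The other 2 were *Ctsd* in replicate 4 of Het at day 21 (5.163 against 3.867 to 4.083), the library with the highest macrophage sum (20.1), and *Atp6v0a1* in replicate 3 of WT at day 21 (0.1987 against 0.1776 to 0.1799).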

How the results depend on the processing

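For the change from day 8 (30 called), 24 to 32 members were called under the alternatives run. For Het against WT at days 14 and 21 (7 called), the total count gave 14 and the replicate block 11. Leaving out 1 replicate gave 0 to 16. The block without replicate 2, 3 or 4 (added after the data were seen) gave 2 each, beside 7.31%, 6.26% and 2.51% of all genes. Day 14 or day 21 alone gave 0, beside 0.185% and 1.97% of all genes. At day 8 (0 called) DESeq2's Wald test gave 2 and leaving out 1 replicate 0 to 9, and for the difference of the effects (0 called) leaving out 1 replicate gave 0 to 1. For day 21 against day 14 (18 called), leaving out 1 replicate gave 9 to 22 and Het alone 0. The causes were not tested. Without a filter on low counts, *Ctsd* and *Ctsz* lost their call between Het and WT. On the total count, the log2 change of *Atp6v1a* from day 8 was -0.0116 and that of *Atp6v0d1* -0.0108. The replicate block changed no other count of members by over 1.5 times. Of 828 alternative values of named members, 693 stayed on the same side of the threshold with the same sign, 83 were no longer called, 7 became called, 2 reversed and 43 uncalled values changed sign. Depth limits *Ctsw*, *Atp6v0e2*, *Atp6v0a4* and *Atp6v1c2*, with 520 to 1524 counts in all 24 libraries.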
